A study of Homo sapiens with 12 samples.

Results

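The TOX family was followed across the cultures of a PAX3-FKHR knockdown experiment in Rh30, an alveolar rhabdomyosarcoma (ARMS) cell line. PAX3-FKHR (now called PAX3-FOXO1) is the fusion transcription factor that marks this muscle-lineage tumor. The members were all gene probes of the array that carry the symbol TOX, TOX2, TOX3 or TOX4, which gave 6 probes of 41000 and 4 genes of 30238 gene names. The family was singled out because TOX3 had been selected on its KD1 values in these same arrays, so its differences between KD1 and the other cultures are given as a description, with no test.

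The 3 cultures were untransfected parental Rh30 cells (WT), a clone with a non-targeting short hairpin RNA (CON) and a clone with the hairpin against PAX3-FKHR (KD1). Both clones carry the same retroviral vector and were kept in puromycin at 1 μg/mL, which WT did not receive, and RNA was taken after 24 h of culture. CON and KD1 were each a single clone, so an effect of the knockdown and a difference between clones cannot be told apart in these data. Each of the comparisons KD1 vs CON, KD1 vs WT and WT vs CON had 2 biological replicates, each hybridized as a dye-swap pair, on 12 two-color arrays. The 6 RNA extracts behind them were used on 4 arrays each, so KD1 vs CON and KD1 vs WT rest on the same KD1 extracts. All 4 WT vs CON arrays lay on 1 slide, whereas the arrays with KD1 lay on a slide of their own for each replicate, so slide and replicate cannot be told apart for KD1.

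TOX proteins carry a single HMG box, a fold that binds and bends DNA by its shape more than by its sequence. TOX itself is known from T cell development and exhaustion, TOX2 was first described in the ovary and acts in lymphoid cells, and TOX3, which has a glutamine-rich end and lies at a breast cancer risk locus, works as a transcriptional coactivator in neurons and epithelia. TOX4 is broadly expressed and belongs to the PTW/PP1 phosphatase complex, with the scaffold PPP1R10 (PNUTS), WDR82 and a catalytic subunit of protein phosphatase 1.

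The values below rest on the hybridization of single 60-base oligonucleotides, and their sequences are shown so that each measurement can be placed on its transcript. TOX3 had a probe near the 5′ end of its transcript (A_24_P119036, start at base 356, chr16:51055512-51055571 of NCBI36, minus strand) and another further toward the 3′ end (A_23_P54681, start at base 2175, chr16:51030307-51030366, minus strand), with 25145 bases of the genome, introns included, between them. TOX2 (chr20:42131510-42131569, plus strand) and TOX4 (chr14:21036778-21036837, plus strand) had a single probe each. The 5′ TOX3 probe is given whole and the others by their first 30 bases, 5′ to 3′, as in the deposited array files.
TOX3 A_24_P119036: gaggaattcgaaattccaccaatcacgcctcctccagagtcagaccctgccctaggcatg
TOX3 A_23_P54681: tatgtgaatcaaactgtttaatgaatcctg
TOX2 A_23_P154566: aagttacagcttatcctaccgtgtgtgtgg
TOX4 A_23_P404134: aagagagtagaaaccctagggagcagtgct

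The longest run of bases that any of these probes shared with a probe of another family gene was 8, and the GC content was 55% for the 5′ TOX3 probe and between 35% and 45% for the other probes.

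All 6 probes were flagged well above background on 8 of 8 arrays of every culture, and none was flagged as an outlier. The 3′ TOX3 probe was nevertheless dim in KD1, as given below. Levels are given as log2 of the processed signal after a further normalization between arrays (Aquantile in limma), the mean over the 4 arrays of an extract. Because the oligonucleotides differ in how well they hybridize, levels were compared within a probe only. A lower level can stand for fewer expressing cells or for less RNA per cell, and these cannot be told apart in bulk RNA.

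TOX3 was the family member whose levels set KD1 apart from WT and CON. On its 5′ probe the log2 level was 8.85 and 8.93 in the KD1 extracts, 9.74 and 10.86 in the CON extracts, and 10.62 and 10.83 in the WT extracts. Both KD1 extracts lay below all CON and WT extracts, whereas CON and WT overlapped, with the lowest and the highest of these 4 values both in CON. TOX3 was chosen on these arrays, so the separation of KD1 on its probes is a description. How many other probes separate KD1 in this way was not counted. In linear units, and without the normalization between arrays, the median processed signal over 4 arrays was 428 and 494 in KD1, 863 and 1741 in CON, and 1712 and 1684 in WT. These medians are a different quantity from the levels, and the order of the WT extracts differs between them.

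The 3′ probe gave the same order at a dimmer signal. Its log2 level was 5.28 and 5.24 in KD1, 6.72 and 7.89 in CON, and 7.48 and 7.62 in WT. KD1 again lay below the rest without overlap, and the CON extracts again lay on either side of the WT extracts. The SD over the 4 arrays of an extract reached 0.57 on this probe, in replicate 2 of KD1, against at most 0.12 on the 5′ probe. In linear units, again without the normalization between arrays, the KD1 signal of the 3′ probe ran from 27.7 to 52.2 over the arrays. It was 33.0 on the forward array of replicate 1 in KD1 vs CON. The 99th percentile of the background-subtracted negative controls in that channel was 40.6, so KD1 was near the floor on that array.

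**Figure D1:**
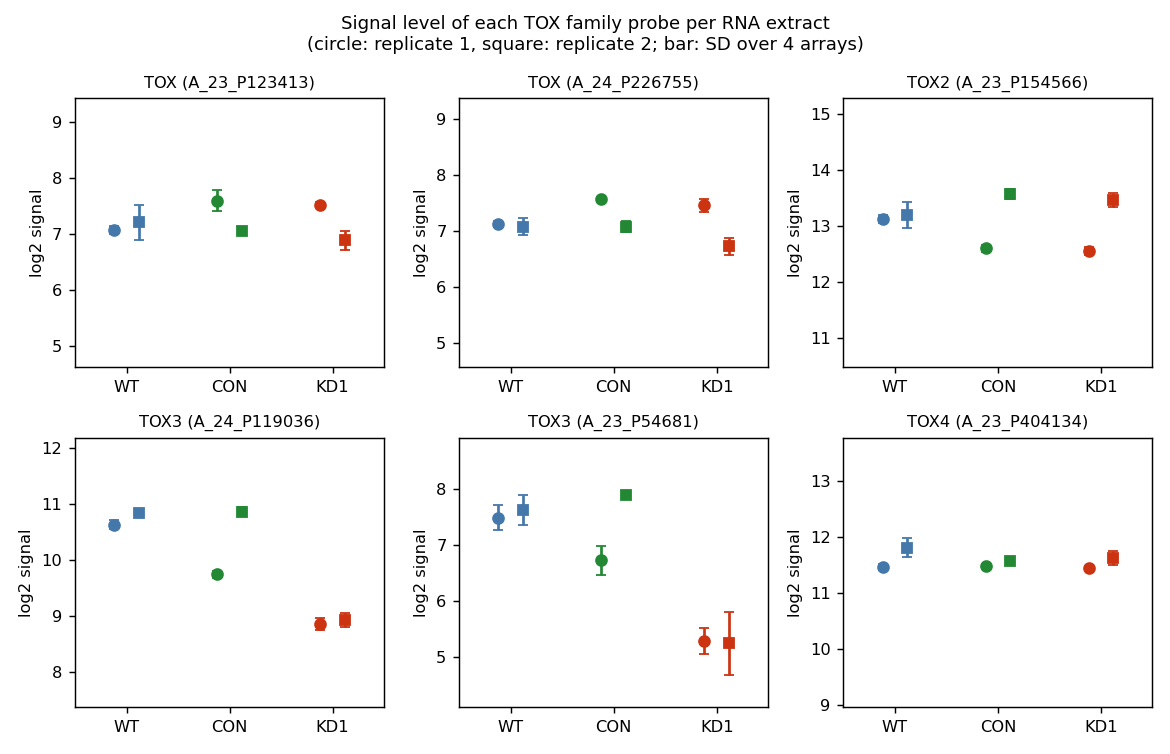
Log2 normalized signal (y axis, the same span in every panel) of each TOX family probe in WT, CON and KD1 (x axis), with replicate 1 as circles, replicate 2 as squares and bars for the SD over 4 arrays. On both probes of TOX3, which was chosen on these arrays, the KD1 extracts (8.85 and 8.93, and 5.28 and 5.24) sit below every other extract. The CON extracts are far apart (9.74 and 10.86 on the 5′ probe).

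In KD1 vs CON, the log2 ratio of the 5′ TOX3 probe was -0.91 in replicate 1 and -1.90 in replicate 2, with a mean of -1.40 ± 0.70 (SD, n = 2), or 2.65-fold lower in KD1. The 3′ probe gave -1.45 and -2.48, with a mean of -1.97 ± 0.73 (SD, n = 2), or 3.91-fold lower. Every one of the 4 arrays was below 0 on each probe, and on each probe replicate 2 showed the larger difference. At least a 2-fold mean with both replicates in 1 direction was reached by 3.96% of the 21937 probes tested in KD1 vs CON. Nothing is read from that share, because TOX3 was chosen on this contrast.

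In KD1 vs WT, the replicates lay close together. The 5′ probe gave -1.83 and -1.90, a mean of -1.87 ± 0.05 (SD, n = 2) or 3.65-fold lower in KD1, and the 4 arrays ranged from -2.05 to -1.76. The 3′ probe gave -2.31 and -2.48, a mean of -2.39 ± 0.12 (SD, n = 2) or 5.25-fold lower, with a wider range over the arrays, from -3.29 to -1.66. These extremes are the forward and the dye-swap array of replicate 2, a gap that the SD of the replicate means does not show. The mean was -2.93 with forward arrays only and -1.86 with dye-swap arrays only. Here 4.59% of the 24884 probes tested reached a 2-fold mean with both replicates in 1 direction. The size on the dim 3′ probe moved when the background correction, its offset and the normalization were changed together. With normexp, an offset of 50 and loess it was -0.58 against CON and -0.87 against WT, still below 0, while the 5′ probe gave -1.62 in KD1 vs WT.

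The spread of TOX3 in KD1 vs CON lay in the control clone. Between replicate 1 and replicate 2, the log2 level of the 5′ probe differed by 1.12 in CON, by 0.07 in KD1 and by 0.21 in WT, and that of the 3′ probe by 1.17 in CON, by -0.04 in KD1 and by 0.14 in WT. A gap at least as large in absolute size as that of the 5′ probe was seen for 1.66% of 21870 probes in CON. For the 3′ probe the share was 1.33%. The CON extracts were on the KD1 slides and on the WT slide alike, and the SD of the 5′ probe over the 4 arrays was 0.06 in replicate 1 and 0.08 in replicate 2. A part of the slides in the CON gap was not tested. With that gap, the TOX3 difference from CON differed by replicate, 1.88-fold lower in replicate 1 and 3.73-fold lower in replicate 2. Without replicate 2 the mean would be -0.91.

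The 3 cultures of a replicate form a triangle, so KD1 vs CON can also be reached through WT. For the 5′ TOX3 probe the sum of KD1 vs WT and WT vs CON was -0.996 in replicate 1, against -0.91 measured directly, and -1.89 in replicate 2, against -1.90. The mismatch of -0.09 and 0.01 compares with a median absolute mismatch of 0.05 and 0.07 over 21870 probes. The 3′ probe closed less well, with a mismatch of -0.11 in replicate 1 and -0.19 in replicate 2. On both probes the difference between replicates was larger than these mismatches.

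WT vs CON was not itself used to choose TOX3 and was tested with limma. It shares the WT and CON extracts with the contrasts that were used, so the test is not independent of that choice. The 5′ probe gave 0.84 and 0.01, a mean of 0.43 ± 0.58 (SD, n = 2), with a 95% interval of -0.18 to 1.03 and an adjusted p of 0.501 in limma. The 3′ probe gave 0.75 and -0.20, a mean of 0.27 ± 0.67 (SD, n = 2), with an interval of -0.35 to 0.90 and an adjusted p of 0.716 in limma. TOX3 was not called between WT and CON, and the intervals still allow a difference of up to about 1 on the log2 scale.

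**Figure D2:**
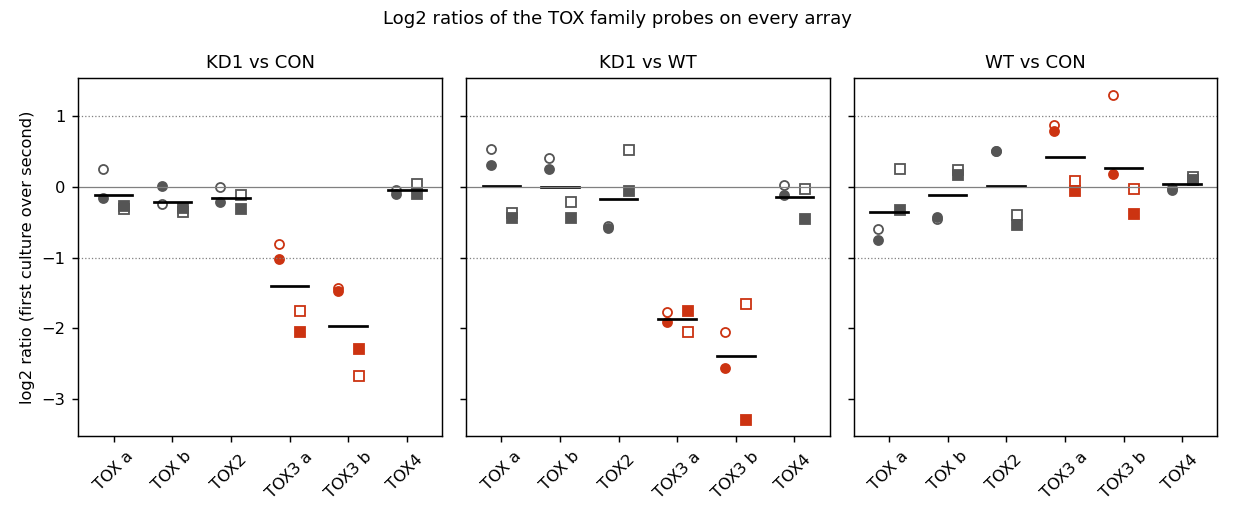
Log2 ratio of each array (y axis) for the 6 TOX family probes (x axis; for TOX, a is A_23_P123413 and b is A_24_P226755, and for TOX3, a is the 5′ and b the 3′ probe), with replicate 1 as circles, replicate 2 as squares, filled for forward and open for dye-swap arrays, bars at the mean of 2 replicates and dotted lines at 2-fold. The 4 arrays of both TOX3 probes lie below 0 in the comparisons with KD1, while the means of TOX, TOX2 and TOX4 stay between -0.35 and 0.05 in all 3 comparisons.

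TOX, TOX2 and TOX4 were not called in any comparison. By limma with an adjusted p under 0.05, 3.56% of all probes tested were called in WT vs CON, 1.77% in KD1 vs CON and 1.48% for KD1 against WT. Of the 4 probes of TOX, TOX2 and TOX4, 0 were called in each of these comparisons, and 0 had an unadjusted p under 0.05. Over all probes tested, an unadjusted p under 0.05 was reached by 27.8% for KD1 against CON, 12.1% for KD1 against WT and 16.1% in WT vs CON, and the counts of list genes at that level below are to be read against these shares. None reached a 2-fold mean in WT vs CON either, nor did TOX3, where 4.53% of all probes did.

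TOX4, the phosphatase complex member, had the narrowest range of levels of the family. Its log2 level was 11.44 and 11.62 in KD1, 11.48 and 11.57 in CON, and 11.45 and 11.80 in WT. The 3 cultures overlapped, and replicate 2 of WT was the highest extract by this mean level. Its linear signal was 5068 on the forward array of KD1 vs WT and from 2793 to 3357 on its other arrays. By median signal, replicate 2 of KD1 (3181) lay just above replicate 2 of WT (3175). The mean log2 ratio was -0.04 ± 0.03 (SD, n = 2) in KD1 vs CON, with a 95% interval of -0.37 to 0.29 and an adjusted p of 0.846 in limma. In WT vs CON it was 0.05 ± 0.10, with an interval of -0.49 to 0.59 and an adjusted p of 0.960 in limma. Against WT it was -0.14 ± 0.14, with an interval of -0.76 to 0.49 and an adjusted p of 0.928 in limma.

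The other subunits of the PTW/PP1 complex were listed as 5 genes. All 5 passed the filter on dim probes, and 0 of the 5 were called by limma in each comparison, with 1 at an unadjusted p under 0.05 for KD1 against CON, 0 for KD1 against WT and 1 in WT vs CON. That gene was the catalytic subunit PPP1CB both times, with 0.91 ± 0.04 (SD, n = 2) in KD1 vs CON (adjusted p = 0.0543 in limma) and 0.87 ± 0.06 in WT vs CON (adjusted p = 0.0865 in limma); these contrasts share the CON extracts. The scaffold PPP1R10 had a mean of -0.14 ± 0.16 against CON and -0.40 ± 0.04 against WT, and WDR82 had -0.11 and -0.19. The median over the 5 genes was -0.14 in KD1 vs CON, beside -0.02 over the 15757 genes tested.

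TOX2 differed more between the replicates of a clone than between the clones. Its log2 level was 12.55 and 13.46 in KD1, 12.60 and 13.57 in CON, and 13.13 and 13.19 in WT. In both clones replicate 1 was low and replicate 2 was high, by 0.91 in KD1 and 0.97 in CON, while the WT extracts lay 0.07 apart, between them. A gap at least as large in absolute size as that of TOX2 was seen for 6.04% of 21870 probes in KD1 and 2.38% in CON.

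The ratios of TOX2 mirrored that pattern of levels. KD1 vs CON, where the replicates move alike, gave -0.10 and -0.21, a mean of -0.16 ± 0.07 (SD, n = 2), with a 95% interval of -0.49 to 0.18 and an adjusted p of 0.466 in limma. KD1 vs WT gave -0.56 and 0.23, a mean of -0.16 ± 0.56 with an interval of -0.85 to 0.52 and an adjusted p of 0.919 in limma. WT vs CON gave 0.51 and -0.46, a mean of 0.02 ± 0.69 with an interval of -0.61 to 0.65 and an adjusted p of 0.984 in limma. In these last comparisons the replicates had opposite signs, so the mean of each describes neither replicate.

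TOX, the T cell factor, showed the reverse order of replicates in the clones. It had 2 probes, A_23_P123413 and A_24_P226755, on chromosome 8 (starts at 59882593 and 59881076 of NCBI36, minus strand), which are not printed. On A_23_P123413 its log2 level was 7.52 and 6.89 in KD1, 7.59 and 7.05 in CON, and 7.07 and 7.20 in WT. On A_24_P226755 it was 7.47 and 6.73 in KD1, 7.57 and 7.09 in CON, and 7.13 and 7.08 in WT. Replicate 1 was the higher extract in KD1 and CON on both probes, and the 3 cultures overlapped.

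For A_23_P123413 the mean log2 ratio was -0.12 ± 0.24 (SD, n = 2) in KD1 vs CON, with a 95% interval of -0.51 to 0.28 and an adjusted p of 0.643 in limma. In KD1 vs WT the replicates had opposite signs, 0.43 and -0.40, with an interval of -0.67 to 0.70 and an adjusted p of 0.996 in limma. In WT vs CON they were -0.67 and -0.03, with a mean of -0.35 ± 0.45 and an adjusted p of 0.578 in limma. The other probe gave means of -0.21, 0.01 and -0.12 in these comparisons, with adjusted p-values of 0.360, 0.998 and 0.895 in limma. The low means of TOX came with intervals that reach beyond 0.5 on the log2 scale in either direction for KD1 vs WT.

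Regulators known to act upstream of TOX in T cells, the calcineurin and NFAT genes and the NR4A receptors, were listed as 11 genes, of which 9 passed the filter; NFATC2 and NR4A2 did not. By limma 0 of the 9 were called in any comparison, with 2 at an unadjusted p under 0.05 in WT vs CON and 3 in each comparison with KD1. NR4A3, an orphan nuclear receptor, was the only one at a 2-fold mean with both replicates in 1 direction. It gave 0.30 and 1.99 in KD1 vs WT, a mean of 1.14 ± 1.19 (SD, n = 2), and -0.53 and -1.54 in WT vs CON, a mean of -1.04 ± 0.71. Its replicates differed by more than 1 log2 unit in each of these comparisons, which share the WT extracts. The adjusted p in limma was 0.237 for KD1 against WT and 0.0858 for WT against CON. For KD1 against CON the NR4A3 replicates had opposite signs, -0.32 and 0.38. Their mean was 0.03 ± 0.49 (SD, n = 2), with an adjusted p of 0.951 in limma.

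Of 3 genes whose products are reported to work with TOX3, all were tested and 0 were called by limma, with 2 at an unadjusted p under 0.05 in KD1 vs CON, the same number in WT vs CON and 0 for KD1 against WT. CITED1, a transcriptional coactivator, had a mean of -0.65 ± 0.03 (SD, n = 2) in KD1 vs CON (adjusted p = 0.0772 in limma), -0.78 ± 0.51 in WT vs CON (adjusted p = 0.164 in limma) and 0.19 ± 0.40 for KD1 against WT (adjusted p = 0.893 in limma). Against WT, its replicates had opposite signs. CREB1, a cAMP response factor named after its values were seen, lay on the other side of 0, with means of 0.37 in KD1 vs CON and 0.55 for WT against CON.

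Beyond the family, 39 other genes with an HMG box were listed, 38 of which were on the array and 33 of which passed the filter in WT vs CON, 30 for KD1 against CON and 32 against WT. By limma 0 of 33 were called in WT vs CON (1 at an unadjusted p under 0.05), 0 of 30 for KD1 against CON (4 at an unadjusted p under 0.05) and 1 of 32 against WT (4 at an unadjusted p under 0.05). The median log2 ratio of the list was -0.04, -0.08 and -0.06, beside -0.03, -0.02 and 0.0049 over all genes tested.

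The gene called was SOX2, a stem cell transcription factor, lower in KD1 than in WT. Its log2 ratios were -1.71 and -1.29, a mean of -1.50 ± 0.30 (SD, n = 2) with an adjusted p of 0.0334 in limma, but in KD1 vs CON they had opposite signs, 0.49 and -1.93. The call was lost under 7 of 9 alternatives, with adjusted p-values up to 0.585 in limma. SOX9, a factor of cartilage and neural crest, gave -0.29 and -2.15 against CON, and -0.77 and -2.40 against WT. Its means of -1.22 ± 1.31 and -1.58 ± 1.15 came with adjusted p-values of 0.189 and 0.0849 in limma. SOX6, which acts in muscle fiber and cartilage differentiation, gave 0.35 and 2.11 in KD1 vs WT (adjusted p = 0.208 in limma).

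**Figure D3:**
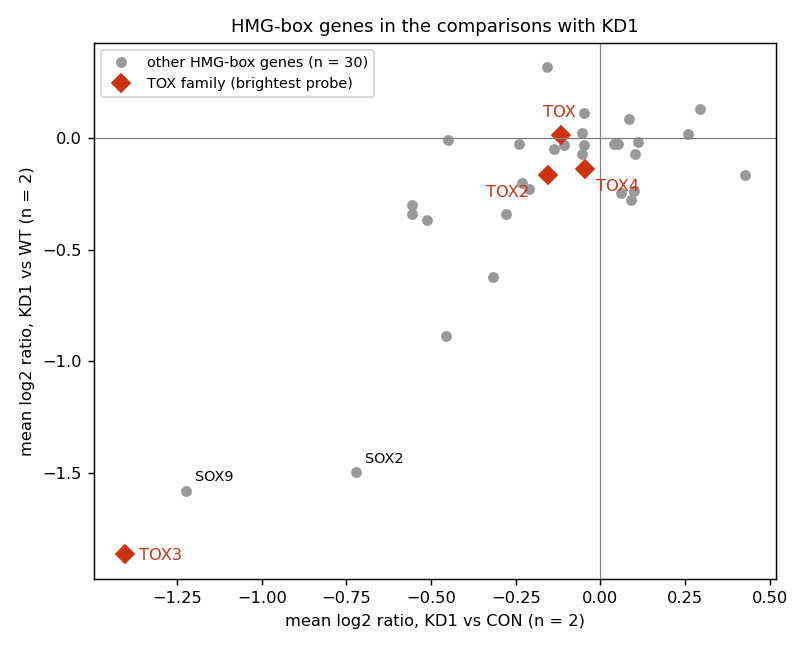
Mean log2 ratio (n = 2 replicates) in KD1 vs CON (x axis) against KD1 vs WT (y axis) for the brightest probe of each TOX family gene (diamonds) and the 30 other HMG-box genes tested in both comparisons (circles). TOX3 (-1.40 and -1.87), which was chosen on these values, lies with SOX9 (-1.22 and -1.58) in the lower left, and the axes share the KD1 extracts.

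The genes whose values were most like those of the 5′ TOX3 probe were found by the root mean square difference over the 6 replicate log2 ratios, among 15705 genes above the negative controls on all arrays. They were LEPREL1 (now P3H2, a collagen prolyl hydroxylase) at 0.258, BTBD11 (now ABTB3) at 0.298, HHIP, which binds Hedgehog ligands, at 0.309, ITGB3, an integrin subunit, at 0.313 and SLC2A10, a facilitative sugar transporter, at 0.318. The median over all genes was 1.47, and the 3′ probe of TOX3 itself stood at 0.455. These 5 genes were ranked by that likeness, so their values are a description: each was lower in KD1, with means from -1.73 to -1.15 against CON and from -2.06 to -1.65 against WT. Each also had the larger KD1 vs CON difference in replicate 2, as TOX3 did.

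The genes around TOX3 on chromosome 16 were not as low as TOX3 itself, which was chosen for low values in KD1. Its place below genes that were not chosen follows in part from that choice, and a regional change was not tested. The 10 nearest measured genes on each side span 6.79 Mb, and their median log2 ratio was 0.13 against CON and -0.12 against WT. The lowest of the 20 was -0.95 and -0.94, above TOX3 in each comparison. The nearest on the lower side, CYLD, a deubiquitinase 1670 kb away, gave 0.35 and 0.15, and the nearest on the upper side, the unnamed probe A_24_P203984 at 471 kb, gave 0.25 and -0.01. A single neighbor lay above 1 in each comparison, the homeobox gene IRX6, named after its values were seen, with 3.15 for KD1 against CON, 1.08 for KD1 against WT and 2.07 in WT vs CON.

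**Figure D4:**
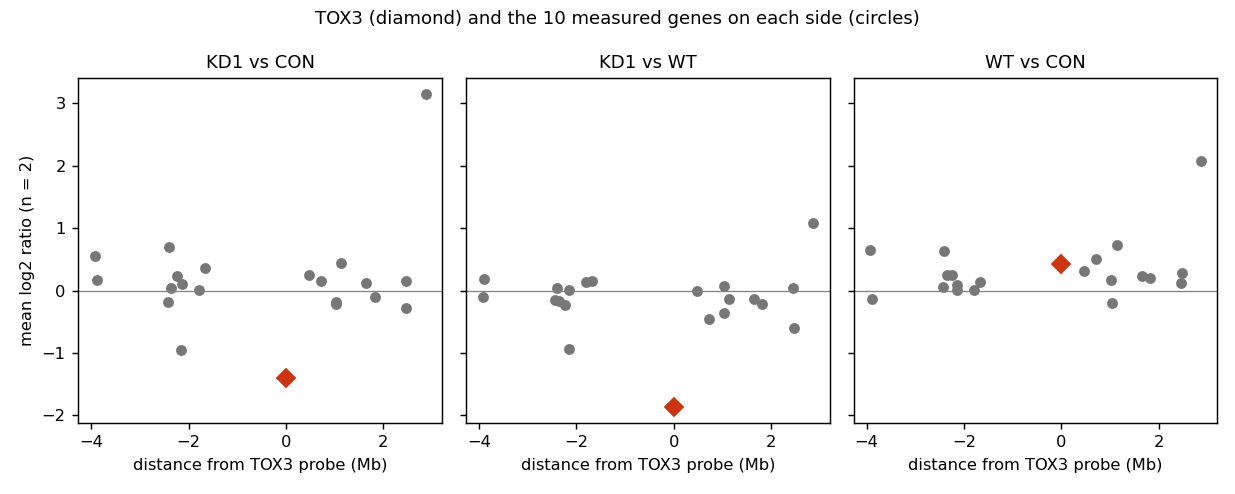
Mean log2 ratio (y axis, n = 2 replicates) against distance from the 5′ TOX3 probe in Mb (x axis) for TOX3 (diamond) and the 10 measured genes on each side (circles). In the comparisons with KD1, TOX3 (-1.40 and -1.87), which was chosen on these values, lies below all 20 neighbors, whose medians are 0.13 and -0.12.

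The same window gave medians of -0.32 and -0.18 around TOX4, -0.04 and 0.05 around TOX2, and 0.05 and 0.08 around TOX, for KD1 against CON and against WT. The TOX4 ratios of -0.04 and -0.14 thus lay above the median of their neighbors in both comparisons. METTL3, an RNA methyltransferase 2.58 kb from the TOX4 probe, gave -0.47 and -0.05.

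The cultures were checked against muscle and other markers. The myogenic genes MYOD1, MYOG, DES, CDH15 and FGFR4 were well above background on every array, and TFAP2B, a marker of fusion-positive tumors, on none. Of 4 markers of other cell types, PTPRC was above background on no array and EPCAM on 4 of 8 WT arrays and no other. CD3E and PECAM1 were flagged well above background on all arrays. CD3E was dim, at log2 levels from 5.43 in WT to 5.77 in CON, and did not pass the filter in KD1 vs CON. PECAM1 was brighter, at log2 levels from 9.44 in WT to 10.00 in CON, and passed the filter in every comparison. The part of these markers in the TOX3 result was not tested. MYOG was lower in WT than in CON, at -1.73 ± 0.33 (SD, n = 2; adjusted p = 0.0041 in limma). The call, though not the direction, was lost under 5 of 9 alternatives, with -1.54 under normexp (adjusted p = 0.263 in limma), -1.59 with separate channels (adjusted p = 0.196, and 0.0915 with the replicate block), and -1.49 and -1.96 with a single replicate (adjusted p = 0.311 and 0.189). In KD1 vs CON, MYOG gave -1.35 and -0.92, a mean of -1.14 ± 0.30 with an adjusted p of 0.0575 in limma. The hairpin is directed against the fusion transcript, and no probe is named for its junction. By RT-PCR and Western blot, the authors reported lower PAX3-FKHR in KD1 than in CON. The brightest PAX3 and FOXO1 probes gave -0.42 and -0.42 against CON (adjusted p = 0.127 and 0.163 in limma), and -0.39 and -0.60 against WT (adjusted p = 0.680 and 0.446 in limma). Their place relative to the fusion breakpoint was not checked, so whether either probe reads the fusion was not established. Signal from the unrearranged genes cannot be told apart in these values.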

How the data were processed

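RNA of WT, CON and KD1 was labeled from 500 ng and hybridized to Agilent 4 × 44 K whole human genome arrays of 45015 features. The authors extracted the scans with Agilent Feature Extraction 10.5.1.1 and deposited linear intensity values per spot, with lowess-normalized processed signals, and a log10 ratio of red over green. The authors' series table holds that ratio on the log2 scale with dye-swapped arrays already turned. Probe positions are on NCBI36.

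Log2 ratios were computed here from the processed intensities, turned to the same direction, and averaged over spots of a probe and over each dye-swap pair. Between 71.1% and 73.6% of probes per array were well above background in Cy3 and between 64.4% and 67.8% in Cy5, with 0 saturated spots and 95 to 188 outlier spots left out. A probe was tested if, on every array of a comparison, its background-subtracted signal in 1 channel or more exceeded the 99th percentile of 153 negative controls. The two-sided tests used lmFit and eBayes of limma 3.58.1 (R 4.3.3) on the 2 replicate ratios of a comparison, with Benjamini-Hochberg adjustment over all probes tested and a threshold of 0.05. The brightest probe stands for a gene with several probes. The small number of arrays, with 2 replicates a comparison, limits precision.

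The family, the gene lists and the tests were chosen with earlier results of these data known. Named genes are all members, list genes called or at least 2-fold in the mean with both replicates in 1 direction, PPP1R10, WDR82 and CITED1, the 5 genes most like TOX3 and the nearest measured genes on each side. Alternatives covered the background correction, centering, the series table, the filter, dye orientation, separate channels with and without the replicate number as a block, and each replicate left out.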

Additional observations from a re-analysis of the deposited data

How the results depend on the processing

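With 2 replicates per comparison, the counts of called probes moved with the processing. The main counts were 388 for KD1 against CON, 368 for KD1 against WT and 946 in WT vs CON. They were 684, 0 and 0 with normexp and loess, where 6125, 2613 and 3905 probes had an unadjusted p under 0.05 in limma. They were 442, 138 and 469 with median centering, 662, 0 and 390 with no filter on dim probes (7647, 3625 and 5589 at an unadjusted p under 0.05 in limma), and 92, 351 and 912 with probes well above background in both channels. With separate channels they were 202, 126 and 114 without the replicate number as a block and 168, 110 and 102 with it as a replicate block. Leaving out 1 replicate gave 0 to 1 calls in WT vs CON, 9 to 16 in KD1 vs CON and 38 to 59 in KD1 vs WT, with the lone ratio assumed to vary like the other comparisons; at 0 calls 2500 probes had an unadjusted p under 0.05 in limma. Of the calls for KD1 against WT, 254 of 368 were lower in KD1, and 112 of 138 with median centering. The cause of these shifts was not tested.

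Of 44 values of the TOX3 probes in the KD1 comparisons under alternatives, 44 were below 0 and 41 at or below -1. The 5′ probe ranged from -1.90 to -0.91 against CON and from -1.90 to -1.62 against WT, with -1.62 from normexp and loess. Leaving out 1 replicate gave 0.01 to 0.84 in WT vs CON, -1.90 to -0.91 in KD1 vs CON and -1.90 to -1.83 for KD1 against WT. The 3′ probe ranged from -2.48 to -0.58 against CON and from -2.93 to -0.87 against WT. Of 126 tested values of the other probes and of TOX3 in WT vs CON, 0 had an adjusted p under 0.05, the lowest being 0.360 in limma.

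Small mean ratios turned their sign without being called. For TOX in KD1 vs WT, median centering gave -0.025. For A_24_P226755 in KD1 vs WT, normexp gave -7.3e-05, median centering -0.075, and separate channels -0.0058 with and without the replicate block. TOX2 in WT vs CON was -0.027 with median centering, and TOX4 in KD1 vs CON was 0.0052 with separate channels, with or without the block. Leaving out 1 replicate gave -0.28 to 0.049 for TOX in KD1 vs CON and -0.40 to 0.43 against WT, and for A_24_P226755 -0.32 to 0.33 in KD1 vs WT and, for WT vs CON, -0.44 to 0.20. It gave -0.56 to 0.23 for TOX2 in KD1 vs WT and, for WT vs CON, -0.46 to 0.51, with -0.20 to 0.75 for the 3′ TOX3 probe in WT vs CON, and -0.025 to 0.12 for TOX4 in WT vs CON.

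The replicate numbers were checked for pairing by the correlation, over probes, of the deviations of same-numbered extracts from their culture means, which was 0.54 for KD1 and CON, -0.07 for KD1 and WT and -0.02 for WT and CON. The numbers therefore do not pair all cultures, and the block moved no member past the threshold. The number of replicates and the signal over background both limit the precision.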
